A study of Macaca mulatta with 40 samples.

Results

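AP3B2, BEGAIN, CACNA1B, TUBB4A, SMPD3, ABAT and CEP170B were examined in vastus lateralis muscle of rhesus monkeys (Macaca mulatta). These 7 of the 35432 counted genes were selected on measured values, as genes known mainly from nerve cells that were among the strongest decreases under calorie restriction. Their diet difference is therefore described below and supports nothing. Total RNA, depleted of ribosomal RNA, was sequenced from thigh muscle of animals of a lifelong ageing study, taken after death and frozen. There were 18 control (CON) animals and 18 calorie restricted (CR) animals, which received fewer calories of the same formulated diet through their years in the study. The 36 animals died at 21.65 to 42 years of age. Each animal gave 1 library, and as the tissue was taken at the end of life, a terminal illness cannot be told apart from the state of the muscle before it. The library names follow 2 patterns, here called library set 1 (8 CON and 8 CR animals) and library set 2 (10 and 10), which stand in for the batch that the labels do not state. In whole muscle, fewer cells of a type and less RNA per cell cannot be told apart.

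AP3B2 encodes the neuronal beta subunit of the AP-3 adaptor, which sorts cargo from endosomes into synaptic vesicles and lysosome-related organelles. CACNA1B is the pore of the N-type calcium channel, which admits calcium at nerve terminals and triggers transmitter release, and BEGAIN is a protein of the postsynaptic density that binds guanylate kinase scaffolds. TUBB4A is a beta-tubulin of brain and myelinating glia, and CEP170B is related to the centrosome and microtubule protein CEP170. SMPD3 is neutral sphingomyelinase-2, which makes ceramide from sphingomyelin, and ABAT is the mitochondrial transaminase that breaks down the transmitter GABA. The motor nerve that reaches a muscle carries axons whose nuclei lie in the spinal cord, so a muscle sample holds axon terminals and Schwann cells but few neuronal cell bodies.

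Of the label of low-abundance neuronal genes, low abundance held for 5 of the 7, and a neuronal source in this muscle was not tested. The mean level over the 36 animals, as log2 CPM (counts scaled to library size, with a prior count of 2), was -1.09 for AP3B2, -1.96 for BEGAIN, -3.30 for CACNA1B, -0.89 for TUBB4A and -2.21 for SMPD3. These 5 levels lay between the 7.77th and the 24.9th percentile of the 17175 genes tested. ABAT at 1.67 (43.5th percentile) and CEP170B at 3.60 (65.7th percentile) were not of low abundance, and both are also known outside nerve cells. Markers of neurons ranged widely in level. UCHL1 had a median of 101 CPM in CON and 65.7 CPM in CR, and SYN1 of 22 and 19.1 CPM. The cholinergic genes CHAT and SLC18A3 had a median of 0 CPM in both diets, with a highest value of 0.0140 CPM for CHAT and 0.0123 CPM for SLC18A3. RBFOX3, which marks neuronal nuclei, had a median of 0.295 CPM in CON and 0.347 CPM in CR.

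The 7 genes lie on 4 chromosomes of the Mmul_10 assembly. AP3B2 (ENSMMUG00000000617, chr7:63015918-63066591, plus strand), BEGAIN (ENSMMUG00000013874, chr7:162755962-162806072, minus strand) and CEP170B (ENSMMUG00000010576, chr7:167187409-167219363, plus strand) share chromosome 7. CACNA1B (ENSMMUG00000009187) is at chr15:58487-317034 on the minus strand and TUBB4A (ENSMMUG00000014216) at chr19:6428622-6436305 on the minus strand. SMPD3 (ENSMMUG00000019496, chr20:55589699-55681931, minus strand) has 252 exonic bases in common with PRMT7 on the other strand. ABAT (ENSMMUG00000046237, chr20:8716421-8824058, plus strand) has 68 exonic bases in common with a non-coding RNA on the other strand. Whether the counting used strand is not given in the sources used here, so reads in these overlaps cannot be assigned. Likewise the treatment of reads that map to several places is not given, which leaves the level of TUBB4A uncertain among near-identical beta-tubulins.

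The promoters of CEP170B, BEGAIN and TUBB4A are printed, as these are the 3 members with the highest transcript GC content, a property taken up below, and differ widely in their count of the letters GGGCGG. Each runs from 250 bases before to 50 bases after the RefSeq start, 5′ to 3′ on the gene's own strand, from Mmul_10: CEP170B at chr7:167187159-167187458 (plus strand), BEGAIN at chr7:162806023-162806322 (minus strand) and TUBB4A at chr19:6436256-6436555 (minus strand). Capitals mark GGGCGG on either strand, so also CCGCCC, the core of the GC box known to bind SP1-type factors.
CEP170B: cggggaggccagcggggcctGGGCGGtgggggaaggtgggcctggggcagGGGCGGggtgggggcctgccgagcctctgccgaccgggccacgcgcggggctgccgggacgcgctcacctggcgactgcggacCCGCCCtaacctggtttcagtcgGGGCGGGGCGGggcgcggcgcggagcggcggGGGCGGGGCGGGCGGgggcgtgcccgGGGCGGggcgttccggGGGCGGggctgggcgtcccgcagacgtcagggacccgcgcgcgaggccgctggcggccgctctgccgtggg
BEGAIN: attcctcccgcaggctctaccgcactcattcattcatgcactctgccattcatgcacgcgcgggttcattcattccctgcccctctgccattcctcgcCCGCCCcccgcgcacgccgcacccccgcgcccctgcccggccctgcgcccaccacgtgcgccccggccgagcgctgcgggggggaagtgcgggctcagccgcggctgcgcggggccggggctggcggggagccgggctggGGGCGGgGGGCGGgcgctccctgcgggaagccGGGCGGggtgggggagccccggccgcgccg
TUBB4A: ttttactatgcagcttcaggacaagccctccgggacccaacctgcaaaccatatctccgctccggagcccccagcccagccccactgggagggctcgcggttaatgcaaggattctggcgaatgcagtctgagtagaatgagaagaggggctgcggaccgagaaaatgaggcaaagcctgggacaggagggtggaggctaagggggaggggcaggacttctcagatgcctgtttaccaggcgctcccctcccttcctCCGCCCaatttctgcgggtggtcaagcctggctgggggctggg
Counted with overlaps, GGGCGG occurred 10 times in the CEP170B promoter, 5 times in that of CACNA1B, 4 times each in those of BEGAIN and ABAT, 2 times in that of AP3B2 and 1 time each in those of TUBB4A and SMPD3. Of 20782 promoters of the same length, 48.4% held it at least once, so holding it is common. The letters TATAAA, on either strand, were in none of the 7 promoters and in 11.2% of all. CAGCACC, the core of the element bound by the neuronal silencer REST, was in none of the 7 and in 7.0% of all, and GGACAG, its other part, was in that of TUBB4A alone and in 19.6% of all. Promoter GC content ran from 61.0% for TUBB4A and 61.3% for SMPD3 to 83.7% for CEP170B and 85.3% for CACNA1B, against a median of 58.3% over all promoters.

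The 36 libraries held 86580400 to 329943000 counts with a median of 180560000 in CON and 173471000 in CR. CON 18 stood apart, with 83.6% of its counts in its 10 most abundant genes and 72.3% in copies of the signal recognition particle RNA. CPM values below were scaled with the trimmed mean of M-values (TMM), whose factor for CON 18 was 0.311, so its CPM values are about 3 times those from its total count.

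AP3B2 and CACNA1B, the presynaptic members, had differences in mean level that rested largely on a few high CON animals. AP3B2 counts ran from 15 through a median of 119.5 to 664 in CON and from 16 through 57.5 to 230 in CR. Its level was 0.0927 CPM at the lowest, 0.584 at the median and 9.49 at the highest in CON, and 0.142, 0.333 and 0.932 CPM in CR. The groups overlapped, with 7 CON animals above the highest CR animal and 2 CON animals below the lowest. CON 18 alone supplied 39.2% of the summed CON level of AP3B2, and with CON 6 52.7%. CACNA1B rested on the fewest counts, 3, 22 and 701 at the lowest, median and highest in CON and 0, 8 and 62 in CR, where 10 of 18 animals had under 10 counts. Its level ran from 0.0173 through 0.103 to 3.46 CPM in CON and from 0 through 0.0566 to 0.333 CPM in CR. CON 18 and CON 11 together supplied 59.3% of the CON sum of CACNA1B, and the ratio of means (CON over CR) was 7.91 where the ratio of medians was 1.82. For AP3B2 these ratios were 3.53 and 1.76.

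BEGAIN, the postsynaptic member, behaved in a similar way in its upper tail. Counts were 7, 62 and 918 at the lowest, median and highest in CON and 5, 21.5 and 134 in CR. Levels were 0.0433, 0.358 and 3.42 CPM in CON and 0.0508, 0.126 and 0.674 CPM in CR. CON 11 and CON 13 supplied 51.6% of the CON sum, and 4 CON animals lay above the highest CR animal. The medians also differed, by a ratio of 2.84 beside a ratio of means of 3.48.

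TUBB4A and CEP170B, the cytoskeletal members, had the smallest fitted differences of the 7. TUBB4A counts were 25, 111.5 and 1073 in CON and 17, 77.5 and 192 in CR, and levels 0.155, 0.787 and 3.97 CPM in CON and 0.129, 0.395 and 0.751 CPM in CR. CON 13 was the highest animal for TUBB4A and held 22.9% of the CON sum. The ratio of medians (1.99) and of means (2.23) were close, and 9 CON animals exceeded every CR animal. CEP170B, the most abundant member, had 965, 2861 and 9810 counts in CON and 207, 1882 and 6038 in CR. Its level was 5.96, 14.3 and 57.3 CPM in CON and 2.16, 11.1 and 28.5 CPM in CR, with CON 11 and CON 18 highest. The ratio of medians of CEP170B was 1.29 and that of means 1.96, and 5 CR animals were below the lowest CON animal.

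SMPD3 and ABAT, the enzymes, had medians that differed more than those of the cytoskeletal genes. SMPD3 counts were 3, 65.5 and 403 in CON and 2, 20.5 and 79 in CR, and levels 0.0185, 0.392 and 3.08 CPM in CON and 0.0122, 0.133 and 0.451 CPM in CR. The highest animals were CON 10 and CON 9, which were not the animals that led AP3B2, BEGAIN or CACNA1B, and 9 CON animals exceeded every CR animal. ABAT counts were 124, 940 and 6346 in CON and 59, 405.5 and 3150 in CR, and levels 0.739, 6.13 and 25.3 CPM in CON and 0.50, 1.80 and 12.3 CPM in CR. The ABAT ratio of medians (3.41) was larger than its ratio of means (2.01), the reverse of the other 6 genes. Within the library sets, the ABAT ratio of medians was smaller, 2.49 in set 1 and 1.40 in set 2. In set 2 it was below that of TUBB4A (1.85). In each of the 7 genes, 13 (CACNA1B) to 17 (TUBB4A) of the 18 CR animals lay below the CON median of their own library set.

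**Figure D1:**
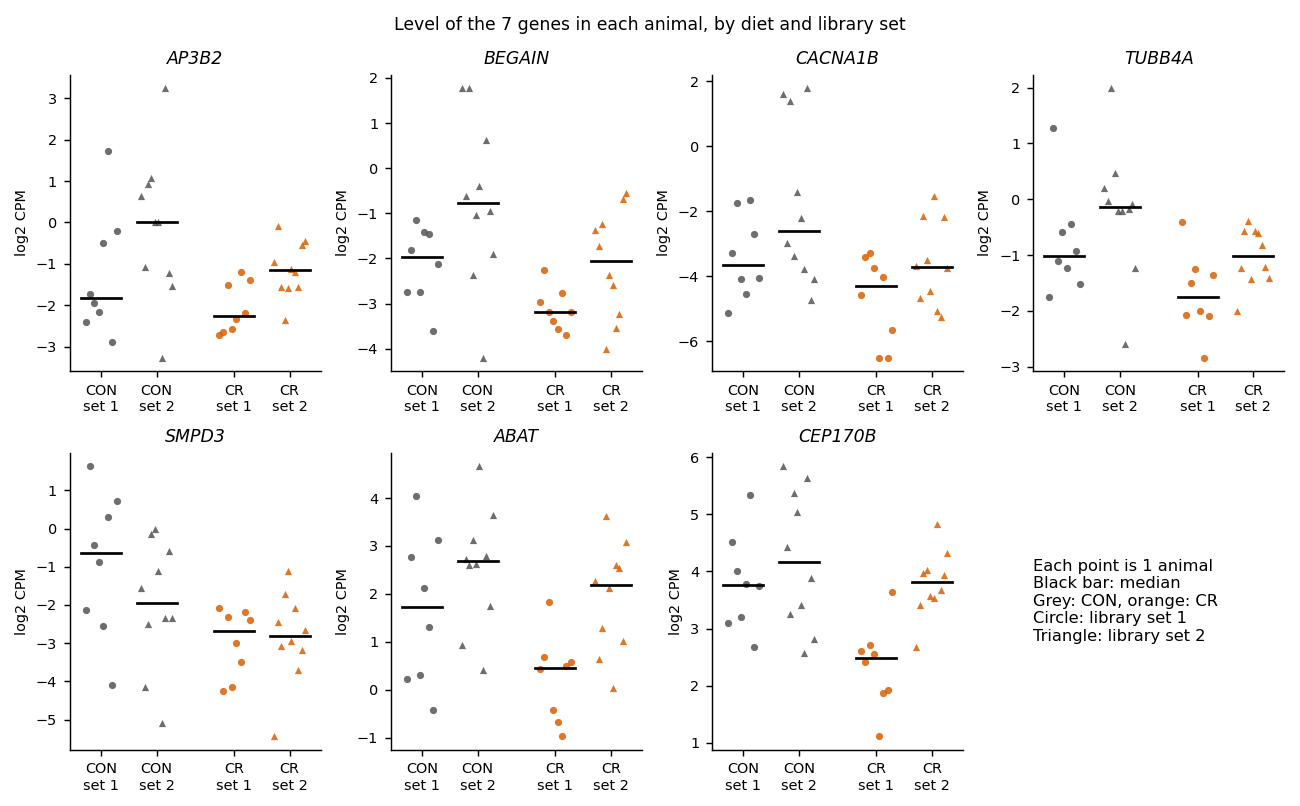
Level of each gene (vertical axis, log2 CPM with a prior count of 2) in the 36 animals, split by diet and library set along the horizontal axis, with 1 point per animal and a bar at the median of each set. The CR and CON points overlap for all 7 genes, and the highest point of each panel is a CON animal.

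The values that chose the genes come from a fit of diet, library set and age to the counts of 36 animals (edgeR quasi-likelihood). All 7 genes were lower in CR at an unadjusted p under 0.01, which is how they were chosen, and 333 of 17175 genes were (1.94%). In the other direction 187 genes were higher (1.09%). The log2 fold change (CR over CON, with SE) was -2.46 (0.66) for CACNA1B, -1.88 (0.50) for SMPD3, -1.77 (0.45) for AP3B2 and -1.61 (0.42) for BEGAIN. It was -1.23 (0.40) for ABAT, -1.12 (0.31) for TUBB4A and -1.11 (0.29) for CEP170B. Ranked by p among the lower genes, AP3B2 came 3rd, CEP170B 6th, BEGAIN 7th, SMPD3 11th, CACNA1B 15th and TUBB4A 27th, whereas ABAT came 137th and so was not among the strongest decreases by that measure. After Benjamini-Hochberg adjustment over all genes in edgeR, no gene passed 0.05 (the adjusted p of all 7 was 0.321), although 2004 genes had an unadjusted p under 0.05. DESeq2 on the same animals gave 57 genes with an adjusted p under 0.05, 6 of the 7 among them, and 0.0859 for ABAT. With all 40 animals the edgeR log2 fold changes of the 7 genes stayed between -1.12 and -2.25.

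The size of the differences depended on the fit and on single libraries. In limma-voom with weights for each sample, which works on log values and gives less weight to unusual libraries, the log2 fold change fell in size to -0.58 for AP3B2, -1.09 for CACNA1B, -1.04 for BEGAIN and -0.64 for CEP170B. SMPD3 (-1.56) and ABAT (-1.45) moved less. In this fit 4 of 7 passed 0.01, namely BEGAIN, TUBB4A, SMPD3 and ABAT. AP3B2 (limma-voom p = 0.108), CACNA1B (limma-voom p = 0.0543) and CEP170B did not pass. When 1 animal at a time was left out, 6 genes passed 0.01 in every fit. The exception was ABAT, which had p = 0.0110 without CON 3 (log2 fold change -1.0) and p = 0.0147 without CON 16 (-1.04) in edgeR. The largest single shift among the 7 was that of AP3B2, from -1.77 to -1.25 without CON 18, and TUBB4A went from -1.12 to -0.83 without CON 13. Without both CON 11 and CON 13, BEGAIN was -1.03 and TUBB4A -0.80. Without CON 18, CON 11 and CON 5, the libraries with the largest share of counts in 10 genes, AP3B2 was -1.18, CEP170B -0.87 and SMPD3 -2.06. The share of all genes called lower was 0.900% in that edgeR fit. All 7 genes had p under 0.01 there, which is a description, as they were chosen by a low p on this contrast.

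**Figure D2:**
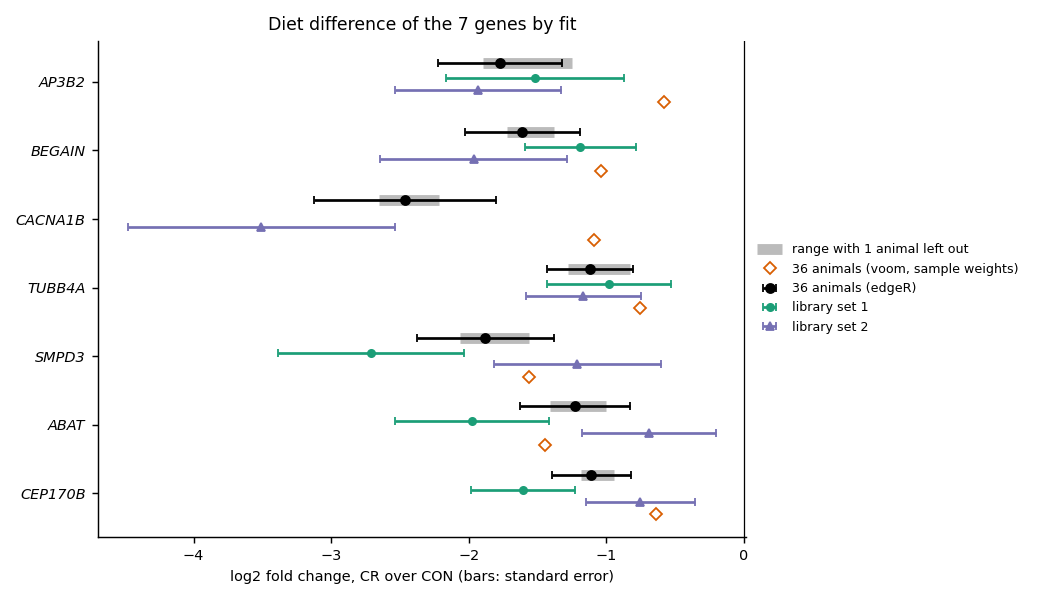
Log2 fold change of CR over CON (horizontal axis) for each gene in 5 summaries: the edgeR fit to 36 animals with its SE, the range when 1 animal is left out (grey), library set 1 and library set 2 alone with SE, and limma-voom with sample weights (diamonds, no error drawn). Every value lies below 0, the voom values of AP3B2 and CACNA1B lie nearer 0 than the edgeR ones, and CACNA1B has no value in set 1, where it had too few counts to be tested.

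The library set contrast did not choose the genes, although library set was a covariate of the fit that did. The level of 6 of the 7 was higher in set 2 than in set 1 at equal diet and age. The share of all genes higher in set 2 is not given here, so that count cannot be set against it. BEGAIN differed by 1.80 (SE 0.47) on the log2 scale, CACNA1B by 2.12 (0.69) and CEP170B by 0.90 (0.31), and these 3 had an unadjusted p under 0.01 in edgeR's quasi-likelihood test, as did 1524 of 17175 genes (8.87%). After Benjamini-Hochberg adjustment in that test 415 genes passed 0.05 (2.42%), and BEGAIN was the member among them (adjusted p = 0.0327). CACNA1B had an adjusted p of 0.0785 and CEP170B of 0.0903 in the same edgeR test. AP3B2 (1.10, SE 0.51), ABAT (1.07, SE 0.43) and TUBB4A (0.60, SE 0.32) did not pass 0.01, and SMPD3 was the member with a value below 0 (-0.55, SE 0.49).

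The diet difference was also taken within each set. In set 1 the CON and CR medians were 0.270 and 0.199 CPM for AP3B2, 0.247 and 0.0994 CPM for BEGAIN, and 13.6 and 5.59 CPM for CEP170B. In set 2 they were 0.992 and 0.440 CPM for AP3B2, 0.574 and 0.237 CPM for BEGAIN, and 18.2 and 14.1 CPM for CEP170B. The log2 fold change of SMPD3 was -2.71 (SE 0.68) in set 1 and -1.21 (0.61) in set 2, that of ABAT -1.98 (0.56) and -0.69 (0.49), and that of CEP170B -1.60 (0.38) and -0.75 (0.40). AP3B2 (-1.52 and -1.93), BEGAIN (-1.19 and -1.96) and TUBB4A (-0.98 and -1.17) had the larger value in set 2. CACNA1B was -3.51 (SE 0.97) in set 2 and was not tested in set 1. The difference between the sets was tested as an interaction of diet and library set, and no member passed 0.01 in edgeR. The interaction on the log2 scale (set 2 minus set 1) was largest for CACNA1B (-1.70, SE 1.23), SMPD3 (1.58, SE 0.93) and ABAT (1.31, SE 0.77). Over all genes 323 had an unadjusted p under 0.01 (1.88%) and 1281 had one under 0.05, none passed the Benjamini-Hochberg adjustment in edgeR (0%), and no member was under 0.05.

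Age at death, also a covariate of that fit but not the contrast that chose the genes, gave no member with p under 0.05 in edgeR. The change per 10 years was between -0.47 (ABAT, SE 0.43) and 0.04 (BEGAIN, SE 0.44) on the log2 scale, with SEs of 0.29 (TUBB4A) to 0.75 (CACNA1B). Over all genes, 88 had an unadjusted p under 0.01 (0.512%), 643 had one under 0.05, and none passed the Benjamini-Hochberg adjustment in edgeR (0%).

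The 4 animals outside the fit, CON 2, CON 8, CR 2 and CR 3, were all in library set 1. They are taken here as those that the study set aside for degraded RNA, which the labels do not mark and which remains uncertain. AP3B2 was at 0.209 and 0.238 CPM in CON 2 and CON 8, above 0.134 and 0.0999 CPM in CR 2 and CR 3. TUBB4A was at 0.329 and 0.653 CPM in these CON animals, above 0.299 and 0.220 CPM in the CR animals. BEGAIN went the other way, with 0.0299 and 0.0884 CPM in CON and 0.134 and 0.0899 CPM in CR. The remaining 4 genes overlapped. SMPD3 had 0 counts in CON 2 and 36 counts (0.269 CPM) in CR 2, and CEP170B was at 2.06 and 4.52 CPM in CON and 2.38 and 2.91 CPM in CR. These 2 against 2 animals were not tested.

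Per kilobase of the longest transcript, the scale on which levels of different genes can be set side by side, CEP170B had the highest median over the 36 animals (1.81 CPM per kb). ABAT followed at 0.507, TUBB4A at 0.187, AP3B2 at 0.102, BEGAIN at 0.0723, SMPD3 at 0.0329 and CACNA1B at 0.00667 CPM per kb. CEP170B was above ABAT in 33 of 36 animals and ABAT above TUBB4A in 28. Neighbours further down the order were less clear, with AP3B2 above BEGAIN in 21 and SMPD3 above CACNA1B in 25 animals.

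Among animals, the 7 genes varied together in part. The relation was taken on log2 CPM after removing diet, library set and age, for 21 pairs over 36 animals, with 100000 permutations and Benjamini-Hochberg adjustment over the pairs. Pearson's r was above 0 in 19 pairs, with a median of 0.342, and 8 pairs had an adjusted permutation p under 0.05 (6 by Spearman's rho). With all 17174 other genes, the median r of a member ran from -0.0127 (CACNA1B) to 0.0257 (ABAT). The genes were chosen on these same animals, where a few CON libraries were high in several of them. The permutations do not allow for that choice, so the relations among the 7 are a description. The closest pair was BEGAIN and CACNA1B (r = 0.647, permutation p = 3e-05, adjusted 0.00063, rho = 0.621, permutation p = 4e-05, adjusted 0.00084). It was 0.588 without the 2 animals farthest from the median, 0.460 in library set 1 and 0.697 in set 2. AP3B2 went with BEGAIN (r = 0.601, adjusted permutation p = 0.00189, rho = 0.528, adjusted 0.0109), at 0.488 in set 1 and 0.663 in set 2, and 0.456 without 2 animals. A further group joined CEP170B to AP3B2 (r = 0.565, adjusted permutation p = 0.00224, rho = 0.410, adjusted 0.0494) and to SMPD3 (r = 0.549, adjusted permutation p = 0.00294, rho = 0.504, adjusted 0.0132). Without 2 animals these were 0.438 and 0.427. CACNA1B showed no such relation with SMPD3 (r = -0.0252, permutation p = 0.886) or ABAT (r = -0.0647, permutation p = 0.708). Within library set 1 (16 animals) 19 pairs were above 0, and within set 2 (20 animals) 18 pairs.

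**Figure D3:**
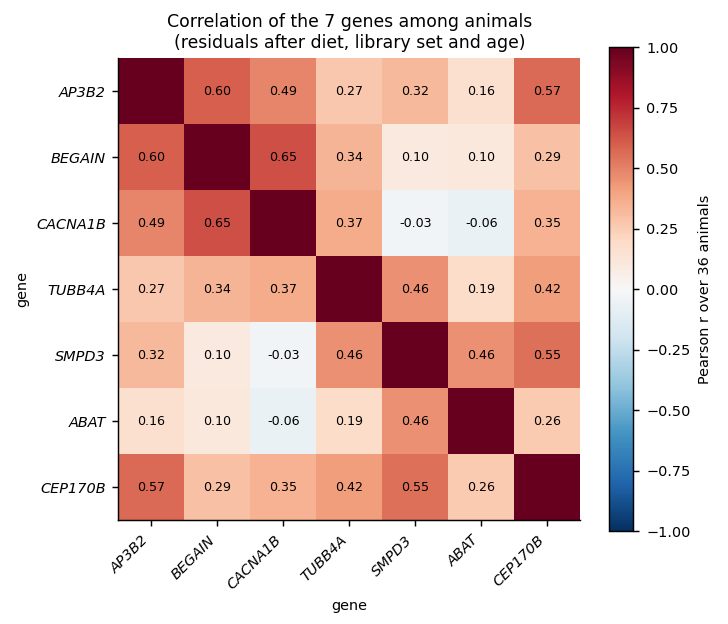
Pearson r between each pair of the 7 genes over 36 animals (colour scale from -1 to 1, value printed in each cell), on log2 CPM after diet, library set and age were removed. The highest values join BEGAIN to CACNA1B and AP3B2, and CEP170B to AP3B2 and SMPD3, without separate blocks. CACNA1B with SMPD3 or ABAT lies near 0.

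Ranked by level, the same animals recurred at the top of several genes. CON 18 and CON 11 had the highest mean ranks over the 7 genes, being among the 5 highest animals in 4 and 5 genes, and CON 14 was so in 5 genes. At the bottom stood CR 6, with 4 genes among the 5 lowest animals, next to the control CON 17, also with 4. CON 17 was the lowest of all 36 animals for AP3B2 and BEGAIN.

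The 3 genes with a symbol whose residual levels were most like those of each member were found among 17174 other genes, so high values follow from the search alone and are given without a test. CEP170B had the closest matches, CAPN15 (r = 0.927), PTPN23 (0.919) and CTDP1 (0.904), and 1339 genes had r above 0.5 with it. AP3B2 was nearest to PRDM15 (0.735), DPYSL4 (0.733) and ADRA2A (0.723), BEGAIN to LAMC3 (0.770), CDC42BPG (0.763) and HYDIN (0.759), and CACNA1B to FBXW10B (0.787), LMNTD2 (0.768) and EFHB (0.766). TUBB4A was nearest to IQCD (0.753), RNF19B (0.744) and REEP4 (0.722), and SMPD3 to MFSD12 (0.742), ZNF367 (0.691) and DDIAS (0.688). ABAT had the loosest matches, TRIM35 (0.666), ING5 (0.663) and PABPC1 (0.653), and 144 genes with r above 0.5. No member was among the 3 nearest genes of another.

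Library measures that could move with these genes were compared next. Over 6 measures, the mean difference between diets was largest, against its spread, for the GC slope, the slope across genes of a library's log2 CPM on transcript GC content in points of 10%. It was 0.0786 ± 0.180 (SD, n = 18) in CON and -0.0786 ± 0.217 (SD, n = 18) in CR (permutation p = 0.0223, adjusted 0.134 over the 6 measures), with a CR minus CON difference of -0.217 in set 1 and -0.109 in set 2. Total counts, genes detected, the share of counts in 10 genes, the share in signal recognition particle RNA and the TMM factor had permutation p of 0.649 or more.

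After diet, library set and age were removed, CEP170B rose with the GC slope (r = 0.681, rho = 0.727, permutation p = 1e-05 for both, the smallest that 100000 permutations can give, adjusted 0.00021 over 21 relations). It was 0.643 without CON 17 and CR 7, the 2 animals farthest from the median, 0.408 in set 1 and 0.834 in set 2. SMPD3 (r = 0.446, rho = 0.420, adjusted permutation p = 0.0205 and 0.0467) and TUBB4A (r = 0.451, rho = 0.516, adjusted permutation p = 0.0202 and 0.00772) did so more weakly. Without CON 17 and CR 7 their r was 0.304 and 0.217, so both relations weakened without these animals. In set 1 r was 0.342 for SMPD3 and 0.668 for TUBB4A, and in set 2 0.523 and 0.326. With the 2 farthest animals of each measure left out, 3 of the 21 relations had an adjusted permutation p under 0.05, beside 8 with all 36. BEGAIN and CACNA1B instead rose with the number of genes detected (r = 0.569 and 0.600, rho = 0.519 and 0.579, adjusted permutation p = 0.00308 and 0.00105 for r, 0.00772 and 0.00378 for rho). Without CON 13 and CR 4 these were 0.525 and 0.512. In set 1 they were 0.276 and 0.662, and in set 2 0.667 and 0.579. AP3B2, BEGAIN and CACNA1B went with the share of counts in 10 genes (r = 0.560, 0.416 and 0.489, adjusted permutation p = 0.00509, 0.0404 and 0.00819), but rho did not pass (adjusted permutation p = 0.0812, 0.103 and 0.103). Without CON 18 and CON 11 r was 0.317, 0.274 and 0.196, so all 3 relations were weaker without those libraries. In set 1, which holds neither library, r was 0.439, 0.348 and -0.132. In set 2 it was 0.625, 0.426 and 0.626. For ABAT no relation with any of the 3 measures passed adjustment. All 3 measures were computed from the same counts as the genes. A GC-rich gene such as CEP170B (96.8th percentile of GC content) tends to follow the GC slope by construction. How many of all genes had such relations is not given here, so these are a description and no trait of the members. Whether these library measures had a part in the diet difference was not tested.

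GC content was not used to choose the 7 genes, and 6 of them lay above the median of tested genes, as did the median of all genes lower in CR. It was known for 13561 genes, 93.0% of the tested genes with a symbol but 79.0% of all tested genes, so the account covers genes with a symbol and is void for the rest. The longest transcript had 66.2% GC in BEGAIN, 65.6% in CEP170B, 62.3% in TUBB4A, 59.7% in SMPD3, 57.8% in CACNA1B, 57.3% in AP3B2 and 49.4% in ABAT, against a median of 49.6%. These are the 97.6th percentile for BEGAIN, the 75.5th for CACNA1B, the 74.0th for AP3B2 and the 49.2nd for ABAT. Genes lower in CR had a median of 59.6% and genes higher in CR 40.7%. By decile of GC content, the share of genes called lower went from 0.0737% in the lowest decile to 6.64% in the highest, which holds BEGAIN, TUBB4A and CEP170B, and the share called higher from 2.87% to 0.221%. When each library's counts were centred within 20 bins of GC content before the edgeR fit, 0.833% of 13561 genes were lower in CR, against 2.32% of 13530 genes without centring, and 0.501% were higher against 0.754%. That changed the share of lower among called genes from 75.5% to 62.4%. After centring the 7 genes had log2 fold changes of -2.30 (CACNA1B), -1.62 (SMPD3), -1.59 (AP3B2), -1.32 (BEGAIN), -1.18 (ABAT), -0.95 (TUBB4A) and -0.85 (CEP170B), each with p under 0.01 in edgeR. Their median was -1.32, against -1.61 without centring. As the genes were chosen at this threshold on the same animals, their passing it again is a description. A part of GC content in their diet difference was not tested.

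**Figure D4:**
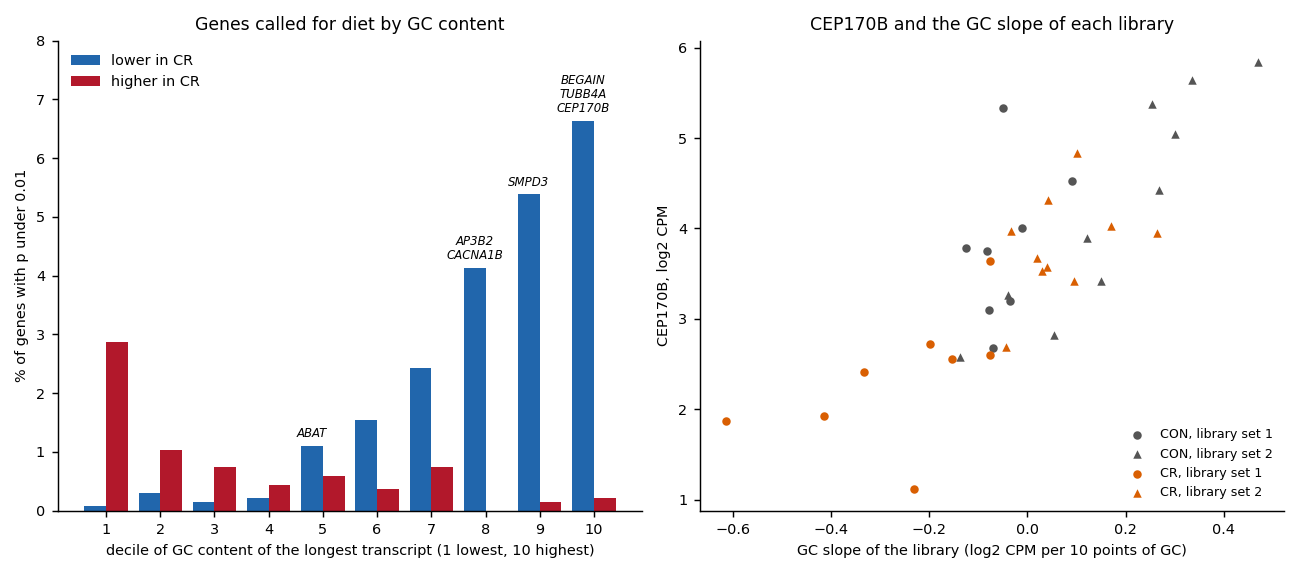
Left, percentage of genes with p under 0.01 for diet (vertical axis) by decile of transcript GC content (horizontal axis), lower in CR in blue and higher in red, with the 7 genes written above their decile. Right, CEP170B level (log2 CPM) against the GC slope of each of the 36 libraries, by diet and library set, where both rise together and CR 7 has the lowest slope.

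The relatives of the 7 genes and markers of the cells of muscle were taken from 15 lists. Of 170 tested list genes other than the members, 7 were lower (4.12%, beside 1.94% of all genes) and 3 were higher in CR at p under 0.01 in edgeR, and their median log2 fold change was -0.0047, beside 0.02 over all genes. The collagens, CACNA1H, SHANK3 and VWF named below did not pass in limma-voom with sample weights, whereas AP3D1, SPHK2, MAL and PRX did.

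In the AP-3 complex 1 of 6 tested genes was lower, the delta subunit AP3D1 (log2 fold change -0.69, SE 0.24), while the ubiquitous beta subunit AP3B1, the closest relative of AP3B2, was at -0.14 (SE 0.14) and AP3M2 at 0.19 (SE 0.16). Of 18 other calcium channel subunits 1 was lower, the T-type pore CACNA1H (-1.30, SE 0.38). CACNA1C, the L-type pore of heart and smooth muscle, did not pass (-1.11, SE 0.51). Of 13 other tubulins listed, 9 were found among the counted genes. None of these 9 passed in edgeR, DESeq2 or limma-voom. In edgeR and DESeq2 0 had p under 0.05, whereas 2 had in limma-voom with sample weights. TUBB2B was at -0.81 (SE 0.53) and TUBA4A at 0.42 (SE 0.37). Of 18 other postsynaptic scaffolds SHANK3 was lower (-1.52, SE 0.50) in edgeR, and HOMER1 was at 0.61 (SE 0.23), which did not pass in edgeR but was higher at p under 0.01 in DESeq2 and limma-voom. Of 15 other sphingolipid enzymes SPHK2, a sphingosine kinase, was lower (-0.50, SE 0.17), and SMPD4 was at -0.30 (SE 0.15). None of 9 other GABA genes passed in edgeR, DESeq2 or limma-voom. In edgeR and DESeq2 0 had p under 0.05, whereas 1 had in limma-voom with sample weights. The aldehyde dehydrogenase ALDH9A1 was at 0.17 (SE 0.17) and the transporter SLC6A11 at 0.59 (SE 0.42). None of 7 genes of the CEP170 list passed in edgeR (1 had p under 0.05), and KIF2C passed in DESeq2, with CEP170 at 0.17 (SE 0.21), KIF2C at -1.97 (SE 0.80) and KIFC3 at -0.60 (SE 0.35).

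Of 16 tested neuron markers, 0 had p under 0.05 in edgeR, DESeq2 or limma-voom, beside 2004 of 17175 genes in edgeR, so a count of 0 among 16 says little about the group. Their median log2 fold change was 0.09, and 6 of the 16 were below 0. SNAP25 was at 0.89 (SE 0.62) and SLC5A7 at 0.57 (SE 0.37). Their summed level ran from 32.1 through 120 to 248 CPM in CON and from 38.4 through 87.3 to 245 CPM in CR. Most of that sum was UCHL1, with a median of 101 CPM in CON and 65.7 CPM in CR. The sum therefore does not stand for the list as a whole. Schwann cell and myelin markers had 2 of 14 tested genes lower in edgeR, beside 1.94% of all genes. These were the myelin genes MAL (-1.11, SE 0.39) and PRX (-1.02, SE 0.31). In edgeR 4 of the 14 had p under 0.05, beside 2004 of 17175 genes. Limma-voom with sample weights called 3 lower, MAL and PRX among them. Of the 14, 9 were below 0, and the median was -0.33. Summed levels were 76.4, 153 and 241 CPM (lowest, median, highest) in CON and 98.6, 131 and 165 CPM in CR. Of 15 genes of the neuromuscular junction and of denervated muscle none passed in edgeR, 2 had p under 0.05, 1 passed in DESeq2 (CHRNE) and 1 in limma-voom with sample weights (CHRNB1). The receptor subunits CHRNB1 (-0.60, SE 0.24) and CHRNE (-0.79, SE 0.32) had the lowest p, and the summed levels were 261, 347 and 1047 CPM in CON and 73.2, 324 and 665 CPM in CR. The part of nerve content in the levels of the 7 genes was not tested.

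Among the other cell types, 0 of 13 muscle fibre markers had p under 0.05 in edgeR or DESeq2 (median log2 fold change 0.15), with summed levels of 41518, 195481 and 475095 CPM in CON and 34704, 232912 and 454878 CPM in CR. MYH1 was at 0.33 (SE 0.42) and TNNI2 at 0.46 (SE 0.38). Of 8 fibroblast markers the collagens COL1A1 (2.31, SE 0.80), COL3A1 (2.12, SE 0.75) and COL1A2 (1.91, SE 0.67) were higher in the edgeR fit, without a like difference in their medians. The median was 53.0 CPM in CON and 33.3 CPM in CR for COL1A1, 59.0 and 59.5 CPM for COL3A1, and 38.8 and 44.0 CPM for COL1A2. The highest level of COL1A1 in any animal was 3338 CPM. The study reported lower COL1A1 in its restricted animals, the other direction from this edgeR fit. The list had summed levels of 292, 708 and 1896 CPM in CON and 311, 871 and 11548 CPM in CR. Of 8 endothelial markers VWF was lower (-0.84, SE 0.26), CDH5 was at -0.60 (SE 0.28), all 8 had values below 0, and the summed levels were 151, 274 and 1053 CPM in CON and 108, 225 and 418 CPM in CR. None of 8 adipocyte markers had p under 0.05 in edgeR or DESeq2, with PLIN1 at 0.58 (SE 0.50), PLIN4 at -0.37 (SE 0.35), and summed levels of 115, 304 and 1068 CPM in CON and 105, 303 and 516 CPM in CR. None of 7 macrophage and leukocyte markers passed in edgeR or DESeq2 (0 and 1 had p under 0.05), with CD163 at -0.99 (SE 0.52), CD68 at -0.66 (SE 0.54), and summed levels of 9.42, 47.1 and 237 CPM in CON and 10.6, 39.9 and 162 CPM in CR.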

How the data were processed

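Muscle RNA of 40 monkeys was sequenced from a stranded, rRNA-depleted total RNA library. The authors trimmed the reads (bbduk), aligned them with STAR to Mmul_10 with an Ensembl annotation and deposited whole counts per gene from featureCounts, without normalization. Strand and multi-mapping settings are not given in the sources used here. Counts were used as deposited.

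Genes were kept by filterByExpr (minimum count 10), scaled with TMM and fitted in edgeR 4.0.16 (R 4.3.3) by quasi-likelihood on diet, library set and age, with p-values adjusted by Benjamini-Hochberg. The study also used sex and weight, which the labels do not give. DESeq2 1.42.0 and limma 3.58.1 were alternatives. SEs were derived from the log2 fold change and the F statistic. CPM used TMM-scaled totals, and log2 CPM a prior count of 2. No 2 libraries were identical. Diet and age came from the labels. CON 2, CON 8, CR 2 and CR 3, which the labels do not mark, were left out because the plotted ages of the study hold all other animals, although its stated age ranges reach those of CON 2 and CR 2, so values for all 40 animals are given beside. P-values measure the spread between animals.

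The 7 genes, the 15 lists and the tests were chosen with earlier results of these data known. Named genes were the members, the 3 most alike genes of each, list genes with p under 0.01 and the 2 of lowest p in each list, AP3B1 and CEP170. CHAT, SLC18A3, RBFOX3, UCHL1 and SYN1 were named after their values were seen. The GC content, promoters and overlaps came from the RefSeq annotation of Mmul_10. The fits were tested on simulated data. The replicate numbers of the labels do not pair animals: over 17 pairs the correlation of same-numbered animals had a median of 0.00684, and 5 were over 0.1.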

Additional observations from a re-analysis of the deposited data

Results flagged for a closer look

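TUBB4A in the CON animals of library set 1 had a sample far from the others. CON 10 was at 1.27 log2 CPM and the next highest of the 8 animals at -0.44, a gap of 0.569 of the range of the group. This was the 1 group singled out among 28 tested (7 genes, 2 diets and 2 library sets), and chance singles out about 1 in 20 groups. CON 10 was also the highest animal for SMPD3. The cause was not tested.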

How the results depend on the processing

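The 7 genes stayed below 0 in every fit that could test them, under each alternative. At p under 0.01, 4 of 7 passed with limma-voom and sample weights, 4 of the 4 that could be tested passed with at least 10 counts in every animal, 4 of 6 passed in library set 1 and 3 of 7 in library set 2. With the replicate numbers as a replicate block 1 passed (BEGAIN), although the numbers do not pair animals. Leaving out 1 animal left 6 to 7. The share of all tested genes called lower was 1.94% (333 genes). It was 3.44% with DESeq2 (590 genes), 2.97% with limma-voom, 3.44% with no filter beyond 1 count, 0.314% with the replicate block (54 genes), 0.995% in library set 2 alone, 0.833% after GC centring and 0.900% without CON 18, CON 11 and CON 5. The last was chosen after seeing the data, as were leaving out CON 11 and CON 13 together and the uncentred GC set. With 1 animal left out it ran from 1.12% (CON 18) to 3.18% (CON 17), and was also over 1.5 times away without CR 6 (1.28%), CR 8 (1.28%) and CR 14 (3.03%). The cause of these shifts was not tested. The genes called lower were 64.0% of those called, and 79.0% with all 40 animals. Members differing between library sets numbered 3 at p under 0.01, 1 with at least 10 counts in every animal (4 members tested), 5 with all 40 animals and 2 to 4 with 1 animal left out. Members changing with age, and members with an interaction of diet and library set, numbered 0 to 0 with 1 animal left out. List genes lower in CR numbered 7, and 4 to 9 with 1 animal left out (4 without CON 15 or CON 18). Pairs of members with an adjusted p under 0.05 numbered 8, 18 when diet, library set and age were not removed, and relations with library measures 8, 3 without the 2 farthest animals. Low counts limit CACNA1B most.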
